A study of Mus musculus with 6 samples.

Results

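The genes of the metalloproteases of the ADAM, ADAMTS and MMP families and of their TIMP inhibitors were followed in TIBx, a mouse line that the labels call liver BNL 1ME A.7R.1, and in TIBxDNAJ-PKAc, the same line with the genotype DNAJ-PKAc. Members were the rows of the expected count table whose symbol begins with Adam, Adamts, Adamtsl, Mmp or Timp followed directly by a digit and whose counts sum to 10 or more over the 6 libraries. The rule gave 38 of the 24054 genes in the table: 10 ADAM, 9 ADAMTS, 2 ADAMTSL, 14 MMP and 3 TIMP genes. Of the 84 rows with such a symbol, 37 had no count and 9 had between 2 and 8 counts in all. Adamtsl3, with 8 counts, was the highest row left out, and Adam11, with 28, was the lowest member. Of the 38 members 35 passed the filter on low counts and were tested, and Adam1a, Adam4 and Adam11 did not.

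DNAJ-PKAc joins part of the heat shock co-chaperone DNAJB1 to the PKA catalytic subunit, and this fusion marks fibrolamellar carcinoma of the liver. Parental cells (WT) and fusion cells gave 3 libraries each, replicates A to C, all grown in the same serum-containing medium. Values are listed in the order A, B, C throughout. There is 1 line per genotype, so a difference between the lines and an effect of the fusion cannot be told apart. The labels do not say whether the replicates were separate cultures, and p-values here reflect library-to-library spread alone, possibly technical. The libraries held 8095549 to 9969590 expected counts. DNAJ-PKAc C stood apart from DNAJ-PKAc A and B (correlations of log2 CPM of 0.914 and 0.911, against 0.993 between A and B). WT B stood apart from WT A and C (0.957 and 0.958, against 0.987 between A and C). In WT B the ribosomal precursor Rn45s took 2.66% of the counts, against 0.912% to 1.05% elsewhere. The long noncoding RNA Malat1 was highest in WT B and in DNAJ-PKAc C within their groups. It gave 2033, 10860 and 2505 CPM in WT and 1051, 1151 and 4796 CPM in the fusion set. Prkaca, the gene of the kinase part, gave 63.6, 87.6 and 79.2 CPM in the WT set against 131, 120 and 95.7 CPM in the fusion set (log2 difference 0.59, SE 0.19, edgeR adjusted p = 0.154). Of 12 hepatocyte markers 10, among them Alb and Hnf4a, had 0 counts in every library, and the list summed to at most 0.117 CPM, so the markers that define hepatocytes were absent from a line labelled liver. Of 12 fibroblast and stellate markers Thy1 and Lrat had 0 counts, and Lum and Des gave at most 0.244 and 0.617 CPM. The list summed to between 16140 and 30060 CPM, with Vim, Col1a2 and Col3a1 in the lead. Vim alone, a gene not limited to these cell types, gave 11556 to 14225 CPM.

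ADAM proteins are membrane-anchored proteases with a disintegrin domain, known for shedding growth factors, receptors and adhesion molecules from the cell surface. ADAMTS proteins are their secreted relatives with thrombospondin repeats, which cut proteoglycans and process procollagen, and ADAMTSL proteins share the repeats but lack the protease. MMPs are zinc proteases that cut collagens, laminin and other matrix proteins, and TIMPs bind and block their active sites, TIMP3 also those of several ADAM and ADAMTS proteases. In injured liver these genes are known mainly from stellate cells and macrophages that remodel scar matrix.

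Of the 14 MMP members 6 lie side by side on chromosome 9, from Mmp13 to Mmp10, which starts 229.8 kb further on. The promoters of these 6 are shown because the genes share a sequence feature. Their log2 differences lay on both sides of 0, but only Mmp3 passed the edgeR test described below. In the RefSeq promoters (GRCm38.p6, the assembly of mm10), 25 of the 38 members had an entry. The AP-1 letters TGAGTCA, searched on both strands over the 250 bases before and 50 after each start, were in the promoters of 7 of these 25 genes: all 6 of the cluster, and Adam19. Of the 32851 promoters in the table, 5.20% held these letters. For each set of letters, members are counted as genes with a match in any of their 29 promoters. The shares of the table are per promoter, so the units differ. Within the cluster they began between 93 bases (Mmp1b) and 35 bases (Mmp13) before the start. The letters TATAAA, on either strand, were also in the window of all 6 and in that of Adamts1, and in 13.6% of all promoters. The cyclic AMP response element TGACGTCA was in 0 of the 25 and in 1.79% of all promoters, and its shorter form TGACG, which lies within the full element, was in those of Adam10, Adamts1, Adamts9, Adamts12 and Timp1 and in 20.8% of all. A match describes these letters in these windows and no binding was measured. The 110 bases before each start in the cluster are given 5′ to 3′ on the gene's strand, in lower case with the AP-1 letters in capitals, and for Mmp12 from the RefSeq entry of its 2 that holds them.
Mmp13 (chr9:7272404-7272513, plus strand): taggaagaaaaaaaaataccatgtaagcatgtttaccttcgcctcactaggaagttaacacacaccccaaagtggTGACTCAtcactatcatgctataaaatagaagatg
Mmp12 (chr9:7347264-7347373, plus strand): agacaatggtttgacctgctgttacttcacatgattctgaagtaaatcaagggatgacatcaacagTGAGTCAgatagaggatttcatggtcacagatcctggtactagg
Mmp1b (chr9:7388027-7388136, minus strand): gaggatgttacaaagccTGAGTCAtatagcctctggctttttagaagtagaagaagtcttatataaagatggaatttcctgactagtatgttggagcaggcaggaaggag
Mmp3 (chr9:7445712-7445821, plus strand): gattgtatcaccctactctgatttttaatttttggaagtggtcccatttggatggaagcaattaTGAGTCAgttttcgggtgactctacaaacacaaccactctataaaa
Mmp1a (chr9:7464031-7464140, plus strand): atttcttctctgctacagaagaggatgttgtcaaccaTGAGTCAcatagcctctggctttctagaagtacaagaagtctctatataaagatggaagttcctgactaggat
Mmp10 (chr9:7502232-7502341, plus strand): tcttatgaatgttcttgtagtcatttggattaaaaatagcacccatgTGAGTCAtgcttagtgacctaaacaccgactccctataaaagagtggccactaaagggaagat

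Over all families more members were lower than higher in the fusion line. By the edgeR quasi-likelihood test with Benjamini-Hochberg adjustment over 10975 genes and a threshold of 0.05, 5 of 35 members fell (14.3%, against 2.14% of all genes tested) and 1 rose (2.86%, against 1.37%). The members that fell were Adam12, Adam19, Adamts1, Adamts14 and Mmp9, and Mmp3 rose. The median log2 difference, DNAJ-PKAc minus WT, was -0.50 over the 35 members and 0.05 over all genes tested, with 23 members below 0 and 12 above. In 13 members every fusion library lay below every WT library (37.1%, against 13.1% of genes tested), and in 4 every fusion library lay above (11.4%, against 15.8%). DESeq2, which was run without the filter, called the same 6 members and also Adam8, Adam10, Adam11, Adamts7, Adamtsl4, Mmp12 and Mmp28 lower, where it called 4.92% of all genes lower. Of all genes, limma-voom called 2.27% lower and 1.29% higher, and DESeq2 called 2.74% higher. The share of all genes at an unadjusted p under 0.05 is not given here. Counts of members or list genes at that cut therefore have no background share beside them. Bulk RNA cannot tell fewer cells of a type from less RNA per cell, in any result here.

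**Figure D1:**
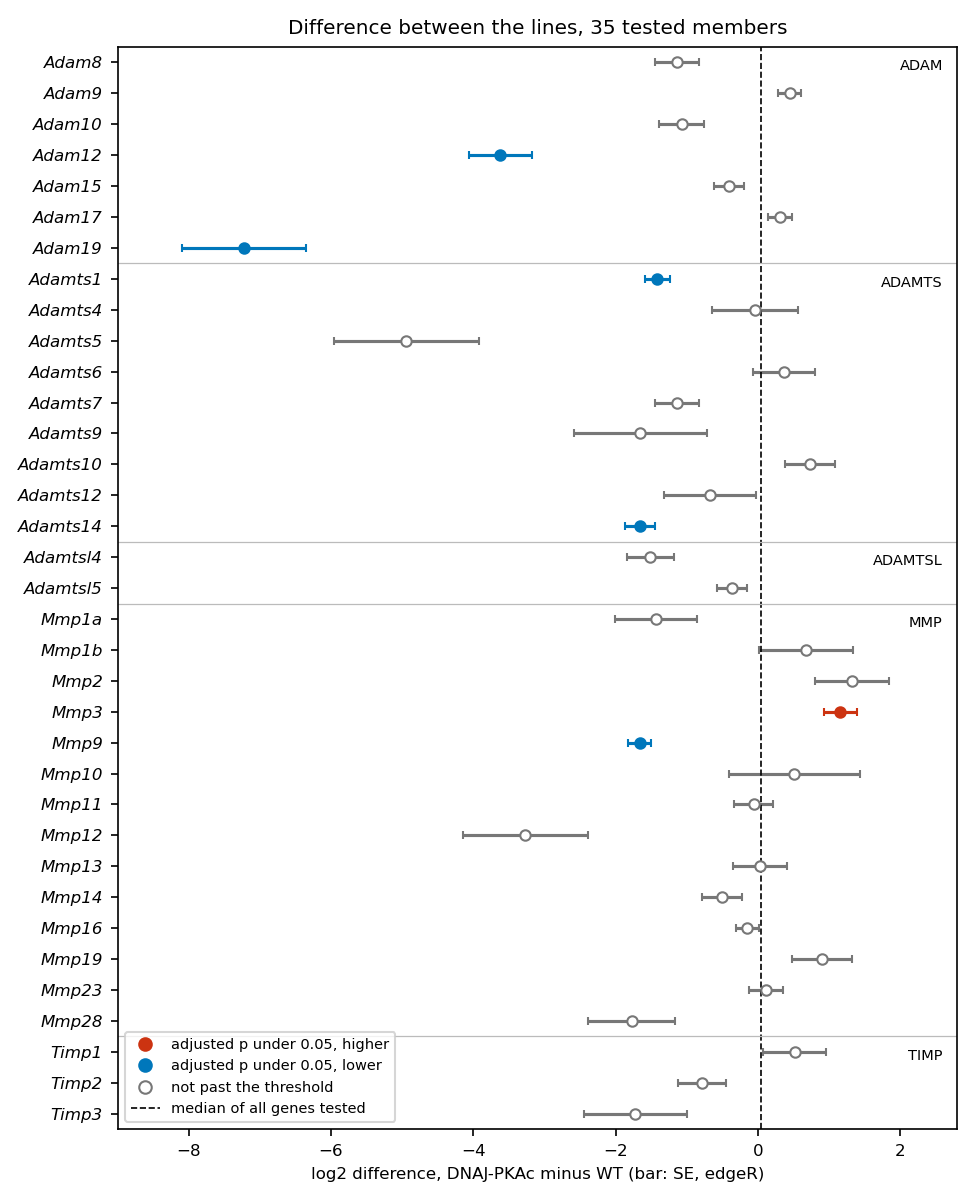
log2 difference between DNAJ-PKAc and WT (horizontal axis) for the 35 tested members, by family, with bars for the SE of the edgeR fit. Filled points passed the adjusted p threshold of 0.05, and the dashed line is the median of all genes tested (0.05); Adam19 and Adam12 lie farthest to the left among the 5 filled points below 0, and Mmp3 is the filled point above 0.

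Among ADAM genes, 2 of the 7 tested fell, 0 rose and the median log2 difference was -1.07. At an unadjusted p under 0.05, 4 were lower and 1 higher, and limma-voom called 2 lower and 0 higher. DESeq2 called 4 of the 7 lower and 0 higher, and also Adam11, which the edgeR filter left out. Both genes that fell are meltrins, the membrane proteases ADAM12 (meltrin alpha) and ADAM19 (meltrin beta), known from muscle and heart development and from fibroblasts. Adam19 (chromosome 11, 46054502 to 46147347 in GRCm38.p6) had 44, 112 and 49 counts in the WT set against 0, 1 and 0 in the fusion set. It was thus close to absent from every fusion library, with a ratio of 202 in summed counts scaled by library size (205 against 1, 95% exact interval 35.9 to 8030, counting error only; edgeR adjusted p = 0.00997). Without DNAJ-PKAc A or B its adjusted p was 0.0526 and 0.0575. Adam12 (chromosome 7, 133883199 to 134225097) gave 16.0, 23.5 and 21.1 CPM in the WT set against 0.693, 1.73 and 2.56 CPM in the fusion set. The groups did not overlap, and Adam12 fell 12.3-fold (log2 -3.62, SE 0.44, edgeR adjusted p = 0.0102), with an adjusted p of 0.0515 without WT B and 0.0575 without DNAJ-PKAc B. Adam11, a member without a working protease site that is known from neurons, was below the filter, with 8, 14 and 6 counts in WT and 0 in all 3 fusion libraries. With the fusion group set to a floor of 3 counts, it was at least 9.21-fold lower, and the 95% exact lower limit of the ratio was 7.01 (counting error only). Without the filter its adjusted p was 0.0523 by edgeR and 0.0055 by DESeq2.

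The general sheddase genes Adam10 and Adam17 did not pass the edgeR test with all 6 libraries. ADAM10 releases Notch and ephrin ligands and cadherins, and ADAM17 releases TNF and ligands of the EGF receptor. Adam10 gave 86.5, 182 and 82.0 CPM in the WT set against 56.3, 55.0 and 55.1 CPM in the fusion set. Every fusion library lay below WT and within 2 CPM of the others, but WT B was more than double WT A and C, and the difference missed the threshold (log2 -1.07, SE 0.32, edgeR adjusted p = 0.127; log2 -0.65 and 0.0811 without WT B). DESeq2 called Adam10 lower (adjusted p = 0.0218). Adam17 had a log2 difference of 0.31 (SE 0.17, adjusted p = 0.312), and it was higher without DNAJ-PKAc C (log2 0.44, adjusted p = 0.0455). Adam9, the ADAM gene of highest level per kb of transcript over both groups, gave 149, 176 and 135 CPM in the WT set against 203, 203 and 222 CPM in the fusion set, with no overlap (log2 0.45, SE 0.16, adjusted p = 0.177). Adam8, a protease known from leukocytes and osteoclasts, gave 147, 144 and 138 CPM in the WT set against 78.5, 82.5 and 35.3 CPM in the fusion set (log2 -1.13, SE 0.31, adjusted p = 0.112). Leaving out DNAJ-PKAc C, the log2 difference of Adam8 was -0.83 and passed the threshold (adjusted p = 0.00596), as it did by DESeq2 with all libraries (0.0149). Adam15 took 21.5% to 34.0% of the summed ADAM level per kb in every library and had a log2 difference of -0.40 (SE 0.21, adjusted p = 0.312). Adam1a and Adam4, gene names known from sperm, had 27 against 14 and 23 against 9 counts in WT and DNAJ-PKAc (95% exact intervals of the WT to DNAJ-PKAc ratio 0.964 to 3.93 and 1.12 to 6.19, counting error only). Both overlap expressed genes on the same strand in GENCODE (Mapkapk5 and Cox16), and reads could be shared.

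Among ADAMTS genes 2 of 9 fell, 0 rose and 7 lay below 0, with a median log2 difference of -1.14. At an unadjusted p under 0.05, 4 were lower and 0 higher, and DESeq2 called 3 lower and 0 higher, limma-voom 3 and 0. Adamts1 encodes a protease of versican and aggrecan that also binds VEGF, and it took the largest share of the summed ADAMTS level per kb in each WT library (31.2% to 39.3%). It gave 252, 261 and 277 CPM in the WT set against 86.6, 91.3 and 120 CPM in the fusion set. The lowest WT library was above double the highest fusion library, and Adamts1 fell 2.65-fold (log2 -1.41, SE 0.18, edgeR adjusted p = 0.0102). Its log2 difference ran from -1.44 to -1.32 where the call was lost, with adjusted p of 0.0543 (WT A left out), 0.0586 (WT C), 0.065 (DNAJ-PKAc A) and 0.067 (DNAJ-PKAc B). Adamts14, which encodes a procollagen N-propeptidase, gave 124, 190 and 159 CPM in the WT set against 55.1, 52.5 and 42.2 CPM in the fusion set. It fell 3.15-fold (log2 -1.66, SE 0.21, edgeR adjusted p = 0.0106), and the adjusted p was 0.0558, 0.0537 and 0.0592 without WT C, DNAJ-PKAc A and DNAJ-PKAc B.

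Adamts5, the main aggrecanase of mouse cartilage, lies 55.0 kb from Adamts1 on chromosome 16. It had 80, 174 and 104 counts in the WT set against 0, 0 and 11 in the fusion set. Low in every fusion library, with all its fusion counts in C, it had a log2 difference of -4.94 (SE 1.02) that missed the threshold narrowly (edgeR adjusted p = 0.0501). The adjusted p lay on both sides of the threshold: 0.0452 and 0.0435 with RLE and upper-quartile scaling, 0.0282 by limma-voom, 0.0618 without the filter, 0.0736 by DESeq2 and 0.117 with a replicate block. Without DNAJ-PKAc C, which leaves 0 fusion counts, it was 0.00312 with a fitted log2 of -9.92, and without any other library it was 0.127 to 0.153. Adamts7, which cuts the cartilage protein COMP, gave 184, 281 and 231 CPM in the WT set against 131, 121 and 62.8 CPM in the fusion set (log2 -1.14, SE 0.31, adjusted p = 0.105). Without DNAJ-PKAc C it was at -0.87 (adjusted p = 0.0221). Adamts7 overlaps Tbc1d2b on the other strand; whether counting used strand is not known here.

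The remaining ADAMTS genes were split within the fusion group. Adamts4, an aggrecanase, was at 55.6, 66.8 and 76.9 CPM in WT, then 28.2, 28.8 and 137 CPM in the fusion set. The fusion libraries lay on both sides of WT, the log2 difference was -0.04 (SE 0.61, adjusted p = 0.974), and without DNAJ-PKAc C Adamts4 was lower (adjusted p = 0.00483). Adamts12 gave 12.1, 13.6 and 65.6 CPM in the fusion set, beside 33.9 to 59.2 CPM in WT, and Adamts9 gave 0.297, 0.617 and 5.48 CPM, beside 4.27 to 10.5 CPM in WT. With all libraries neither passed (Adamts12 log2 -0.67, adjusted p = 0.562; Adamts9 log2 -1.65, adjusted p = 0.332), and both were lower without DNAJ-PKAc C (log2 -1.91, adjusted p = 0.00424; log2 -3.85, adjusted p = 0.00697). Adamts6 and Adamts10, known for acting on fibrillin microfibrils, had log2 differences of 0.37 and 0.73 (adjusted p = 0.645 and 0.264) and were highest in DNAJ-PKAc C, at 29.7 and 21.8 CPM. Without it the log2 difference of Adamts6 turned to -0.34 (adjusted p = 0.217) and that of Adamts10 was 0.34 (adjusted p = 0.341).

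Neither ADAMTSL gene passed the edgeR test (at an unadjusted p under 0.05, 1 was lower and 0 higher; DESeq2 called 1 lower and limma-voom 0). Adamtsl4, which binds fibrillin microfibrils and is linked to the lens zonule, gave 55.2, 118 and 54.9 CPM in the WT set against 24.9, 23.6 and 31.3 CPM in the fusion set. The groups did not overlap and WT B was more than double the other WT libraries (log2 -1.51, SE 0.33, edgeR adjusted p = 0.0604; 0.038 with upper-quartile scaling, 0.0285 without DNAJ-PKAc C; log2 -1.09 and 0.0569 without WT B). Adamtsl5 had a log2 difference of -0.36 (adjusted p = 0.33).

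**Figure D2:**
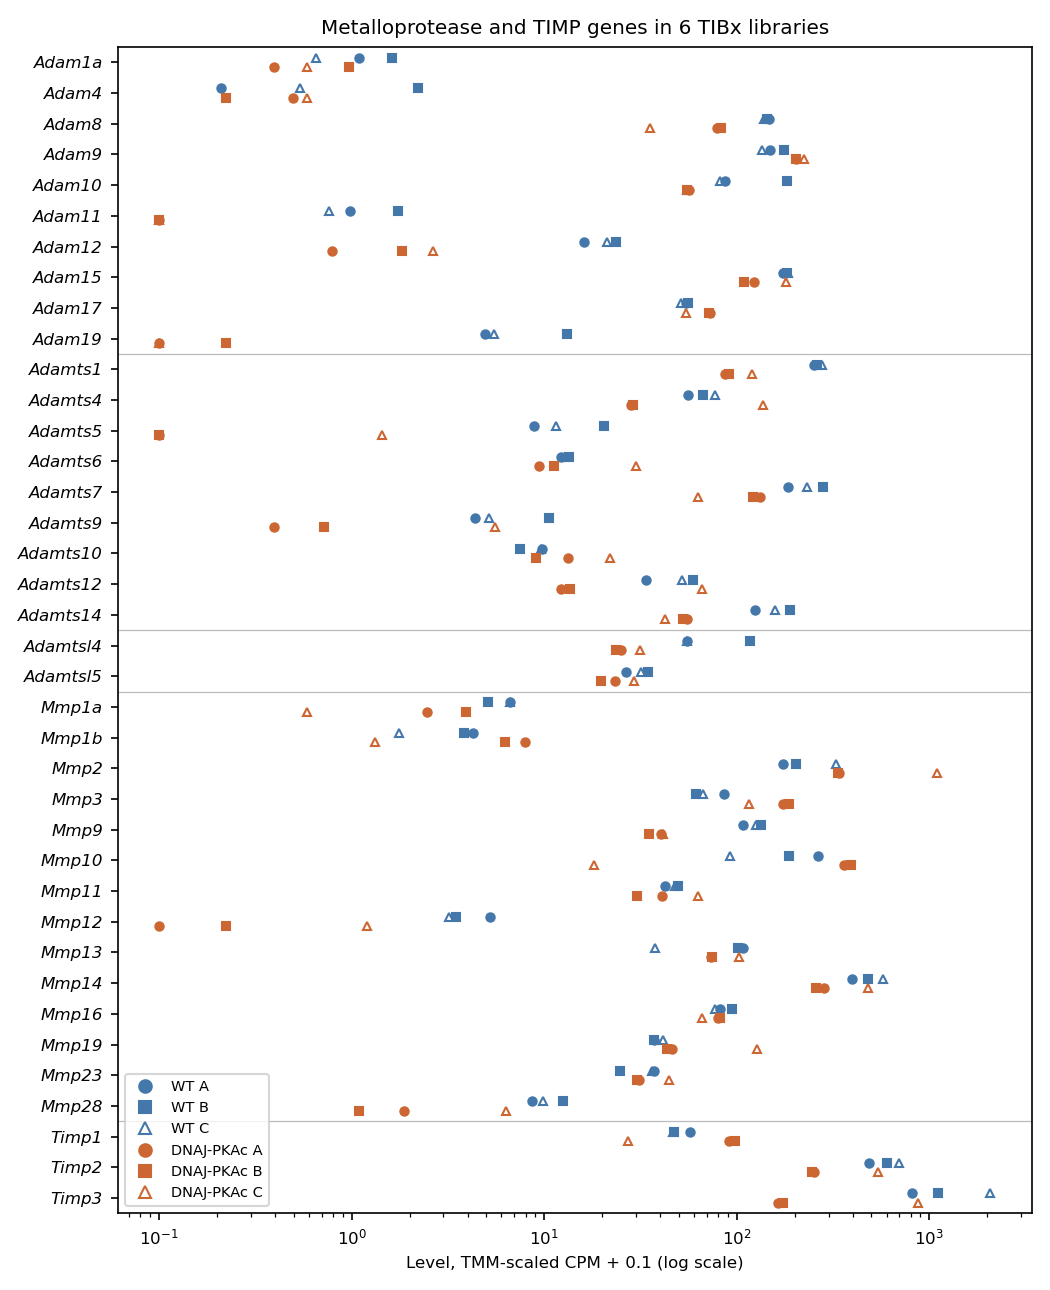
Level of the 38 members in each library (horizontal axis, TMM-scaled CPM + 0.1, log scale), by family; blue is WT, orange is DNAJ-PKAc, and circles, squares and open triangles are replicates A, B and C. For Adam12, Adam19, Adamts1, Adamts14 and Mmp9 all orange symbols lie to the left of all blue ones, while for Timp3, Adamts4 and Adamts12 the orange triangle lies among or beyond the blue symbols.

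Of the 14 MMP genes 1 rose and 1 fell, 7 lay above 0 and 7 below (among those above, Mmp13 turned from 0.03 to -0.02 with RLE and -0.03 with upper-quartile scaling), and the median log2 difference was -0.02. At an unadjusted p under 0.05, 2 were higher and 4 lower, DESeq2 called 1 higher and 3 lower, and limma-voom 1 and 1. The gelatinases, which cut denatured collagen and collagen IV, had log2 differences of opposite sign. Mmp9 (chromosome 2, 164940326 to 164955850) gave 108, 133 and 126 CPM in the WT set against 40.2, 34.95 and 41.2 CPM in the fusion set. The fusion libraries, C included, lay close together and far below WT. Mmp9 fell 3.15-fold (log2 -1.66, SE 0.16, edgeR adjusted p = 0.00458), and it was the 1 member whose call was kept without each library in turn (adjusted p from 0.00121 to 0.0406). Mmp2 gave 174, 203 and 327 CPM in the WT set against 341, 335 and 1101 CPM in the fusion set. The fusion libraries lay above WT, A and B only just above WT C, and the difference missed the threshold (log2 1.33, SE 0.52, edgeR adjusted p = 0.205). Leaving out DNAJ-PKAc C, the log2 difference of Mmp2 was 0.53 (adjusted p = 0.19). Mmp14, the membrane-anchored activator of pro-MMP2, gave 397, 478 and 574 CPM in the WT set against 284, 258 and 481 CPM in the fusion set (log2 -0.50, SE 0.28, adjusted p = 0.322), and it was lower without DNAJ-PKAc C (adjusted p = 0.0212).

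The chromosome 9 cluster holds stromelysins, collagenases and the macrophage elastase, whose promoters are printed above. Mmp3, stromelysin 1, which cuts proteoglycans and laminin and activates other pro-MMPs, gave 85.8, 61.5 and 66.6 CPM in the WT set against 174, 187 and 116 CPM in the fusion set. Each fusion library exceeded each WT library, and Mmp3 rose 2.23-fold (log2 1.16, SE 0.23, edgeR adjusted p = 0.0462). That call was close to the threshold: the adjusted p was 0.108, 0.154 and 0.183 without WT A, B and C, 0.179 and 0.169 without DNAJ-PKAc A and B, 0.00322 without DNAJ-PKAc C, 0.0538 with RLE scaling, 0.0555 with upper-quartile scaling and 0.0753 with a replicate block. Mmp10, stromelysin 2, was at 264, 186 and 92.0 CPM in WT, then 362, 394 and 18.0 CPM in the fusion set. C thus lay below every WT library and A and B above every one, and the log2 difference was 0.51 (SE 0.92, adjusted p = 0.767). Its sign depended on the fit, with -0.27 by limma-voom, -0.17 with a replicate block and 1.07 without DNAJ-PKAc C, none past the threshold. Mmp12, macrophage elastase, had 47, 29 and 28 counts in the WT set against 0, 1 and 9 in the fusion set (ratio of summed counts 10.3, 95% exact interval 5.36 to 22.0; log2 -3.27, SE 0.88, edgeR adjusted p = 0.103). Without DNAJ-PKAc C Mmp12 was lower (log2 -5.82, adjusted p = 0.00309). Mmp12 and Mmp1b overlap on opposite strands in GENCODE.

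Mmp13, the main interstitial collagenase of the mouse, differed by 0.03 on the log2 scale, with the sign turned by other scaling (SE 0.38, adjusted p = 0.973), with 108, 101 and 37.8 CPM in WT and 73.5, 74.6 and 103 CPM in DNAJ-PKAc. The groups overlapped and WT C was the lowest library. Mmp1a and Mmp1b, related copies that could share some reads, were at 6.58, 5.02 and 6.51 CPM and at 4.16, 3.73 and 1.66 CPM in WT. The fusion values were 2.38, 3.83 and 0.487 CPM (Mmp1a) and 7.82, 6.17 and 1.22 CPM (Mmp1b). C was the lowest library for both, and neither passed the test (log2 -1.43, adjusted p = 0.22 for Mmp1a; log2 0.68, adjusted p = 0.563 for Mmp1b). Of the 6 neighbours 1 rose, 0 fell and 5 did not pass, where 1.37% of all genes tested rose and 2.14% fell. Their log2 differences ran from -3.27 to 1.16. All 6 hold the AP-1 letters on one strand or the other, and the part of these letters in the differences was not tested. Mmp8 and Mmp27, the next MMP genes of the cluster, had no count in any library.

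**Figure D3:**
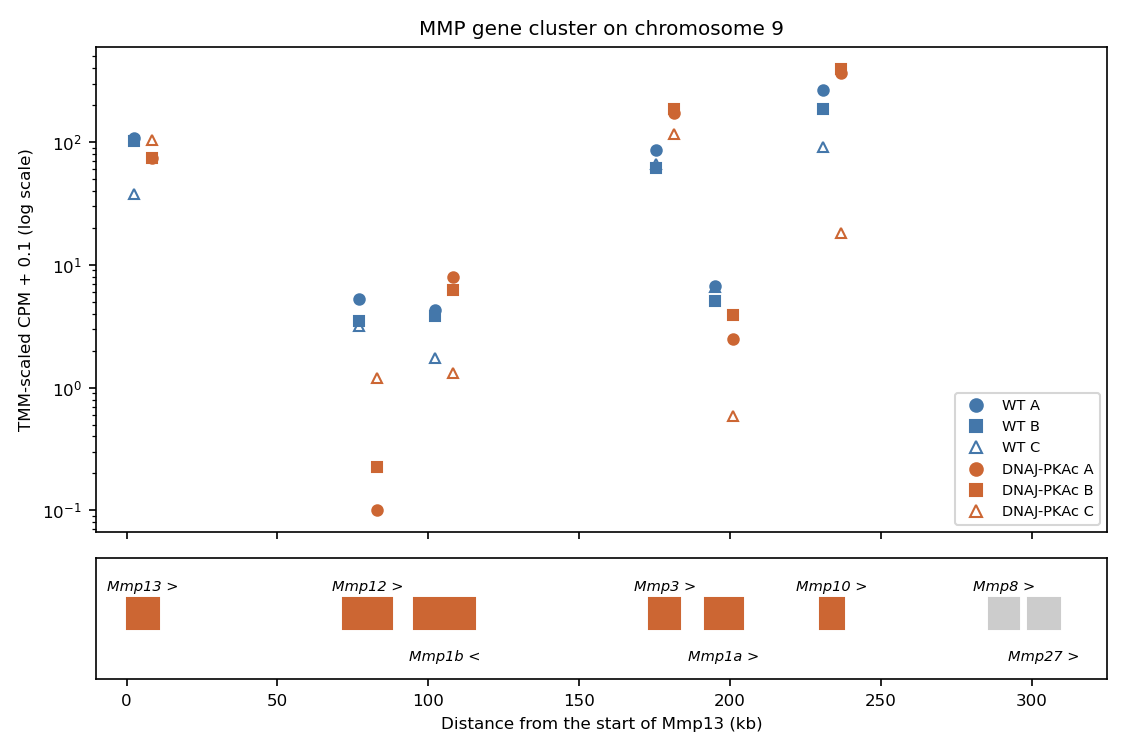
The MMP cluster on chromosome 9: level of each member in each library (upper panel, TMM-scaled CPM + 0.1, log scale) over the position of its gene in kb from the start of Mmp13 (lower panel; arrowheads give the strand, and grey genes had no count). For Mmp3 all orange symbols lie above the blue ones, for Mmp12 all lie below, and for Mmp10 the orange triangle (18.0 CPM) lies far below the orange circle and square (362 and 394 CPM).

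Outside the cluster, Mmp28 (epilysin, known from keratinocytes) gave 8.55, 12.4 and 9.72 CPM in the WT set against 1.78, 0.988 and 6.21 CPM in the fusion set (log2 -1.77, SE 0.61, adjusted p = 0.17), and it was lower without DNAJ-PKAc C (log2 -2.84, adjusted p = 0.00243). Mmp19 gave 37.0, 36.9 and 41.5 CPM in the WT set against 46.0, 43.1 and 127 CPM in the fusion set (log2 0.90, SE 0.42, adjusted p = 0.259). All 3 fusion libraries lay above WT, C by far the most. Mmp11, Mmp16 and Mmp23 had log2 differences between -0.15 and 0.11, none past the threshold.

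None of the TIMP genes passed the edgeR test with all 6 libraries (at an unadjusted p under 0.05, 1 was lower and 0 higher, and DESeq2 and limma-voom called 0). All 3 passed without DNAJ-PKAc C, in a fit that called 11.0% of all genes lower and 14.3% higher. Timp3, which encodes the matrix-bound inhibitor, had the highest level per kb of all members in WT, at 282 CPM per kb. It gave 814, 1107 and 2078 CPM in the WT set against 164, 174 and 873 CPM in the fusion set. C lay within the WT range and A and B far below it, and the log2 difference was -1.72 (SE 0.72, edgeR adjusted p = 0.226). Without DNAJ-PKAc C it was -2.98 (adjusted p = 0.00659), and with a replicate block -2.08 (adjusted p = 0.0421). With both WT B and DNAJ-PKAc C left out it was -3.14 and did not pass (SE 0.69, edgeR adjusted p = 0.0696). Timp2, the inhibitor that also links pro-MMP2 to MMP14, gave 484, 600 and 697 CPM in the WT set against 252, 245 and 540 CPM in the fusion set (log2 -0.78, SE 0.34, adjusted p = 0.238; -1.26 and 0.00529 without DNAJ-PKAc C). Timp1, the secreted inhibitor that injured liver is known to induce, had a difference of the opposite sign: 56.8, 47.4 and 46.4 CPM in WT, 90.6, 98.3 and 27.1 CPM in the fusion set. Its log2 difference was 0.52 (SE 0.44, adjusted p = 0.505), and 0.91 without DNAJ-PKAc C (adjusted p = 0.00673). Timp1 and Timp3 lie inside Syn1 and Syn3 on the other strand, which had 48 and 11 counts in all.

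On the scale of CPM per kb of the longest GENCODE transcript, the MMP members summed to 536, 514 and 509 in the WT set and to 621, 630 and 745 in the fusion set. The TIMP members summed to 367, 450 and 680 in WT and to 205, 214 and 361 in DNAJ-PKAc. MMP over TIMP was 1.12 ± 0.356 in WT (SD, n = 3) and 2.68 ± 0.533 in DNAJ-PKAc, with values of 1.46, 1.14 and 0.749 against 3.03, 2.94 and 2.06. The ratio, which does not depend on the scaling of libraries, was higher in each fusion library than in each WT library, also without division by length (0.513 to 1.00 against 1.51 to 2.93). Its makeup differed within the fusion group: Mmp10 made up 33.9% and 36.3% of the MMP sum in DNAJ-PKAc A and B and 1.41% in C, where Mmp2 made up 48.0%. Likewise Timp1 gave 103 and 111 CPM per kb in A and B, more than Timp2 or Timp3 there, and 30.6 in C, where it made up 8.49% of the TIMP sum. ADAMTS members summed to 132, 171 and 160 CPM per kb in WT and to 65.1, 63.2 and 93.2 in DNAJ-PKAc. ADAM members summed to 156, 188 and 152 in WT and to 132, 129 and 136 in DNAJ-PKAc. The ADAMTSL sums were 20.2, 37.5 and 21.3 in WT and 11.8, 10.6 and 14.8 in DNAJ-PKAc. On this scale the sums of the groups did not overlap in any family, with the fusion libraries above WT for MMP and below WT for the rest. For TIMP the gap was narrow (367 in WT A, 361 in DNAJ-PKAc C), and without division by length the TIMP sums overlapped. Timp1, Timp2 and Timp3 then gave 56.8, 484 and 814 CPM in WT A against 27.1, 540 and 873 CPM in DNAJ-PKAc C. A background share for sums of this kind is not given here.

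The split of the fusion group ran through many members. In DNAJ-PKAc C, 11 of the 35 tested members were at least 2-fold above the mean of A and B on the scale of log2(CPM + 0.5) (31.4%, against 7.77% of genes tested), and 6 were at least 2-fold below (17.1%, against 8.10%). Above were Mmp2, Mmp12, Mmp19, Mmp28, Timp2, Timp3, Adamts4, Adamts5, Adamts6, Adamts9 and Adamts12, and below were Mmp1a, Mmp1b, Mmp10, Timp1, Adam8 and Adamts7. The ratio of C to the mean of A and B was 5.16 for Timp3 and 5.11 for Adamts12, and for Mmp10 the mean of A and B was 21.0 times C. The sums of other lists differed along this split. The fibroblast and stellate markers summed to 25240 to 26520 CPM in WT, 16380, 16140 and 30060 CPM in the fusion set. Of the 8 tested, 1 rose, the smooth muscle actin gene Acta2 (9.28 against 42.3 CPM on average, edgeR adjusted p = 0.0102), and 0 fell (0 also lower at an unadjusted p under 0.05 or by DESeq2 or limma-voom). All 13 proliferation genes of a list added after earlier results were known were detected, and they summed to 694 to 842 CPM in WT, 2729 and 2898 CPM in A and B and 348 CPM in C. With all 6 libraries 0 of the 13 passed the edgeR test, though all lay above 0, with a median log2 difference of 1.56. At an unadjusted p under 0.05, 4 were higher and 0 lower, and DESeq2 called 1 higher and limma-voom 0. The part of either list in the members' differences was not tested. Endothelial markers summed to at most 2.32 CPM, with Kdr, Emcn and Lyve1 at 0, and the leukocyte markers Ptprc, Emr1, Itgam and Cd3e were at 0, while Cd14 gave 18.5 to 99.8 CPM. Of 6 cholangiocyte markers Krt19, Epcam and Cftr were at 0, Krt7 was under 1 CPM, Sox9 gave 8.53 to 56.0 CPM and Spp1 gave 354 to 3140 CPM.

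**Figure D4:**
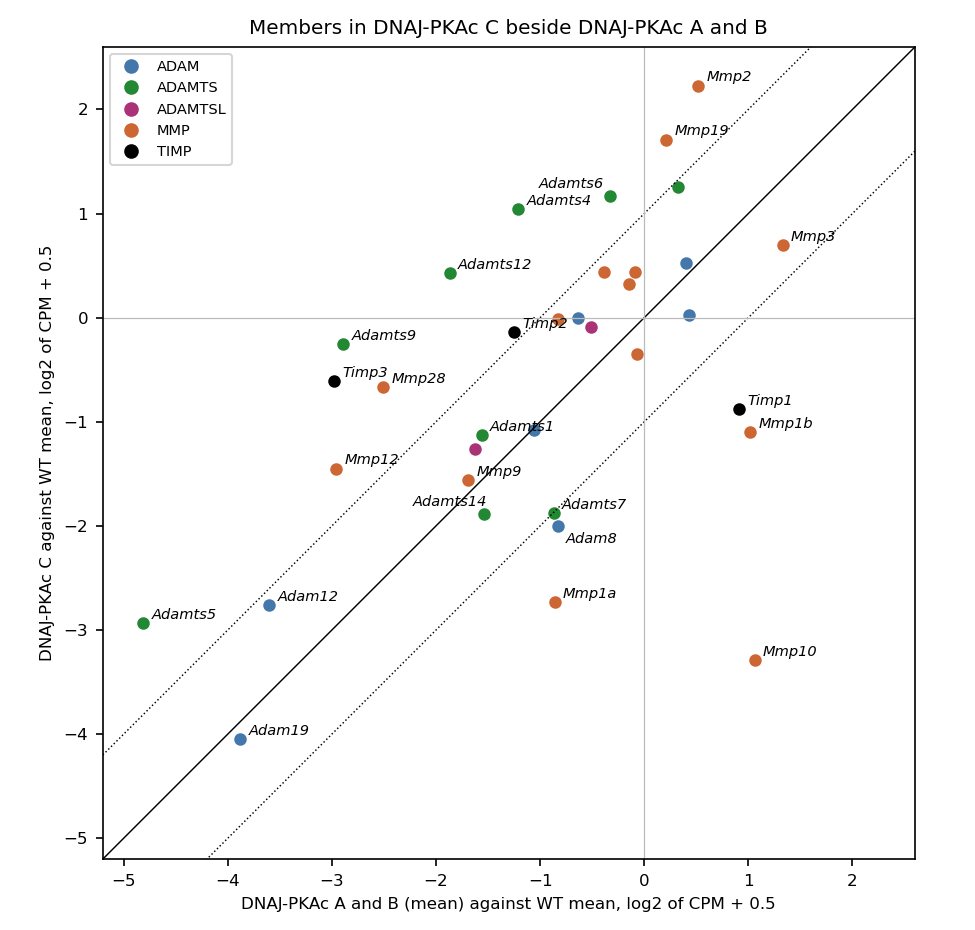
Each tested member in DNAJ-PKAc C (vertical axis) and in the mean of DNAJ-PKAc A and B (horizontal axis), both against the WT mean as log2 of CPM + 0.5, coloured by family. The solid line marks equality and the dotted lines a 2-fold difference; 11 members lie above the upper dotted line, among them Timp3 and Mmp2, and 6 below the lower one, among them Mmp10 and Timp1.

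Without DNAJ-PKAc C, 18 of 35 members were lower (51.4%, against 11.0% of all genes tested in that fit) and 3 were higher (8.57%, against 14.3%). The 3 were Adam17, Mmp3 and Timp1. The 18 comprised 4 ADAM genes, 7 of the 9 ADAMTS genes, Adamtsl4, 4 MMP genes and the 2 inhibitors Timp2 and Timp3. All 6 members called with every library were among the 21. In the same fit 6 of the 8 tested fibroblast and stellate markers were lower and 1 higher, 7 of the 14 secreted matrix substrates were lower and 1 higher, and all 13 proliferation genes were higher. Their part in the members' calls was not tested. Leaving out any other library left between 1 and 4 members lower and 0 higher, in fits that called 0.460% to 0.759% of all genes lower and 0.171% to 0.243% higher.

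**Figure D5:**
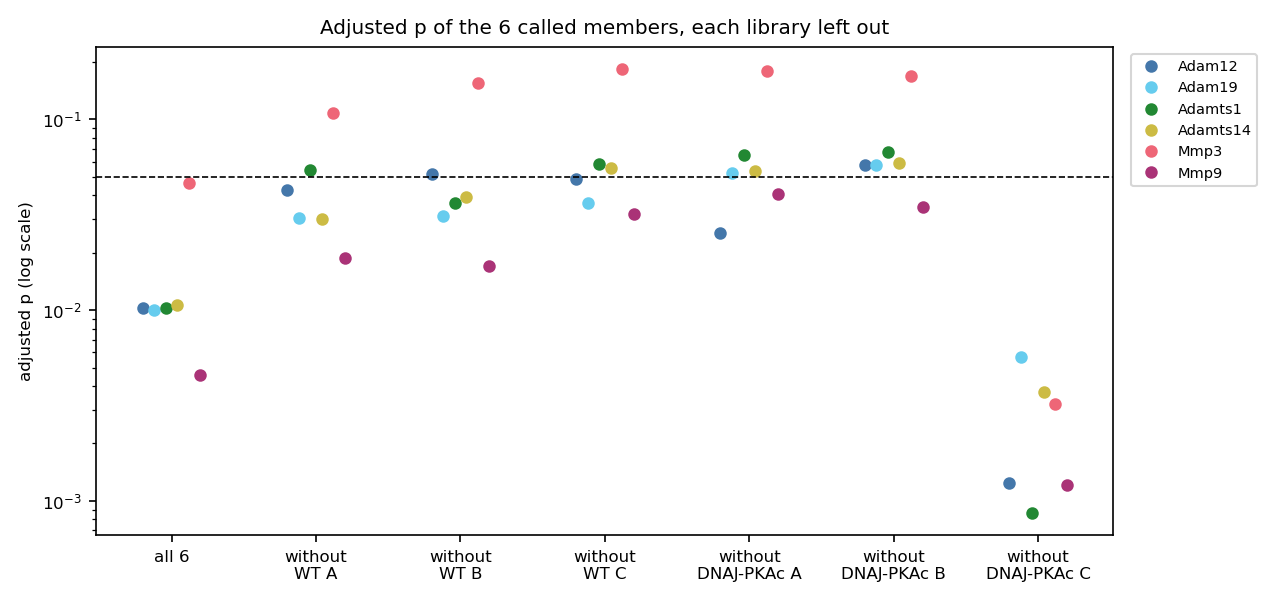
Adjusted p (vertical axis, log scale, edgeR) of the 6 called members with all 6 libraries and with each library left out in turn (horizontal axis); the dashed line is the threshold of 0.05. Mmp9 stays under the line throughout (0.00121 to 0.0406), and Mmp3 lies above it without any 1 library other than DNAJ-PKAc C.

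Genes that act on these proteases or are cut by them were read from 6 further lists. Of 12 tested regulators of metalloproteases 1 fell and 0 rose (at an unadjusted p under 0.05, 2 lower and 2 higher; 0 higher by DESeq2 or limma-voom), with a median log2 difference of -0.09. The gene that fell was Tspan15, a tetraspanin that escorts ADAM10 and directs it to its substrates. It gave 78.4, 57.3 and 73.7 CPM in the WT set against 3.27, 3.33 and 4.63 CPM in the fusion set, an 18.6-fold fall (log2 -4.22, SE 0.24, edgeR adjusted p = 0.00116) kept without each library in turn (adjusted p at most 0.0143). Tspan5 and Tspan14, other ADAM10 partners, were at log2 0.38 and 0.56 (adjusted p = 0.22 and 0.158), and Cav1 was at -0.62 (0.103). In the plasminogen system, with a median of 0.11, 1 of 7 fell: Plau, the urokinase that starts the plasmin cascade upstream of pro-MMPs, from 363 ± 54.1 to 135 ± 42.1 CPM (SD, n = 3; log2 -1.43, edgeR adjusted p = 0.0383), and 0 rose (2 were higher at an unadjusted p under 0.05, and DESeq2 called 1). Without any 1 library but DNAJ-PKAc C its adjusted p was 0.102 to 0.14. Its receptor gene Plaur was at log2 1.29 (adjusted p = 0.13).

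Of 6 other tested metalloproteases, with a median of -0.20, 1 fell and 0 rose, with 0 higher at an unadjusted p under 0.05 or by DESeq2 or limma-voom. It was Ece1, the endothelin-converting enzyme, 48.0-fold lower at 0.975 ± 0.334 against 46.7 ± 6.55 CPM (SD, n = 3; edgeR adjusted p = 0.00116), while the procollagen C-proteinase gene Bmp1 was at log2 0.14 (adjusted p = 0.745). Of 28 shed substrates, with a median of -0.20, 1 rose and 1 fell (at an unadjusted p under 0.05, 4 higher and 5 lower; by DESeq2 3 and 6, by limma-voom 1 and 1, without DNAJ-PKAc C 4 and 8). These were the receptor phosphatase gene Ptprk 6.19-fold higher (adjusted p = 0.00687, kept without each library, at most 0.0456) and the adhesion molecule gene Alcam lower, at 3.62 ± 0.705 against 0.066 ± 0.114 CPM (SD, n = 3; adjusted p = 0.0129; up to 0.0674 without 1 library). Of 14 secreted matrix substrates, with a median of -0.41, 1 rose and 0 fell, with 0 lower at an unadjusted p under 0.05 or by DESeq2 or limma-voom, but 7 lower without DNAJ-PKAc C. The gene that rose was Thbs1, 7.91-fold (adjusted p = 0.0289; 0.0577 to 0.13 without any 1 library but DNAJ-PKAc C). Of 21 regulators of MMP transcription, among them the AP-1 genes, 0 rose or fell by edgeR, DESeq2 or limma-voom (at an unadjusted p under 0.05, 2 were higher and 2 lower), and the median was 0.04. Smallest in adjusted p were Ets2, at 14.3 ± 1.03 against 21.6 ± 3.09 CPM (SD, n = 3; log2 0.59, edgeR adjusted p = 0.15) with no overlap, and Cebpb, at 18.6 ± 3.69 against 27.8 ± 4.70 CPM (SD, n = 3; log2 0.58, edgeR adjusted p = 0.201) with overlap. The AP-1 gene Jun gave 232, 268 and 210 CPM in the WT set against 198, 160 and 115 CPM in the fusion set (log2 -0.59, adjusted p = 0.205), with no overlap between the groups. For the AP-1 genes Fos, Fosb, Fosl1, Fosl2, Junb and Jund the groups overlapped. In the fusion set DNAJ-PKAc C differed from A and B for Fosl1 (129, 107 and 28.9 CPM), Fos (4.65, 4.20 and 26.7 CPM) and Fosb (4.75, 5.31 and 24.0 CPM).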

How the data were processed

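Stranded total RNA libraries were made from 3 WT and 3 DNAJ-PKAc samples, per the labels' protocols. The authors deposited expected counts per gene symbol, not normalized, per the file headers. The submitters' processing notes name STAR 2.5.2b, RSEM 1.3.0 and mm10, with no role. Annotation and strand setting: not given in the sources used here. Overlapping or near-identical genes could therefore share reads.

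Expected counts were rounded, and filterByExpr (minimum count 10) left 10975 genes. The quasi-likelihood test of edgeR 4.0.16 (R 4.3.3), with TMM factors, robust dispersions and group alone in the model, was adjusted over all of them. CPM values are TMM-scaled, and 1 CPM is 8.10 to 10.1 counts. Lengths are of the longest GENCODE transcript, and coordinates and promoters are from RefSeq on GRCm38.p6, where all 38 members matched. Alternatives were other scaling, filters and dispersions, DESeq2 1.42.0, limma-voom (limma 3.58.1), a replicate block, a stricter threshold and left-out libraries. The fits were tested on simulated counts. Intervals and floors cover counting error only.

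Members, lists, alternatives and tests were chosen with earlier results of these data known. Named by rule were each called member, in each family the member of highest level per kb and the 2 uncalled members of smallest adjusted p, every tested TIMP, members below the filter with at least 20 counts in 1 group and at most 3 in the other, and in other lists the called genes and up to 2 of smallest adjusted p. Other members and genes were named after their values were seen.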

Additional observations from a re-analysis of the deposited data

How the results depend on the processing

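The 19 tested members named by rule had 304 values under the alternatives. None of these changed sign, 247 stayed on the same side of the threshold, 23 lost a call and 34 gained one. The threshold of 0.01, counted among these alternatives, reuses the fit with all libraries. It could not change a sign, nor the side of a member that was not called. Of the other tested members, Adamts4, Adamts6, Mmp10, Mmp11, Mmp13 and Mmp23 changed sign under at least 1 alternative. Of these sign changes only that of Mmp23 with WT B and DNAJ-PKAc C left out passed the threshold (log2 -0.31, adjusted p = 0.0475). The count of members higher (1 with all libraries) was 0 with RLE scaling, with upper-quartile scaling, with a replicate block and at a threshold of 0.01. It ran from 0 to 3 without each library in turn and was 5 with both WT B and DNAJ-PKAc C left out, where 23.9% of all genes were called higher. The count of members lower (5) was 12 of 38 by DESeq2 (Adam11 among them), which called 4.92% of genes lower, and 2 at a threshold of 0.01. It ran from 1 to 18 without each library, and was 22 with WT B and DNAJ-PKAc C left out, where 24.5% of all genes were called lower. The pairs left, WT A with C and DNAJ-PKAc A with B, are the most alike of their groups (correlations 0.987 and 0.993), which by construction narrows the spread. With all other settings it was 5 to 7. With the replicate letter as a block 6 members were lower. The letters did not pair the libraries: deviations from the group means correlated at 0.21, -0.20 and 0.03 for A, B and C, and not every library correlated best with its own letter. Over all genes the block gave 56 higher and 143 lower, against 150 and 235 without it. Adam1a, Adam4 and Adam11, with 28 to 41 counts in all, were too shallow to be tested under the filter.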
